A study of Rattus norvegicus with 18 samples.

Results

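The long-chain acyl-CoA synthetase family of the rat was followed through 5 genes, Acsl1, Acsl3, Acsl4, Acsl5 and Acsl6, of 13811 named on the arrays. Its members were every probe set whose platform annotation gives 1 symbol and that symbol is one of these genes, which found 8 probe sets among 31256, of which the 15923 of one array type (array A) hold 6 and the 15333 of the other (array B) hold 2. Acsl1 had 3 probe sets, Acsl5 had 2, and Acsl3, Acsl4 and Acsl6 had 1 each. The study compared O4+ cells (4 replicates) with A2B5+ cells (5 replicates), both sorted by flow cytometry from dissociated whole brains of male rats at postnatal day 7, a litter of 10 pups being pooled for each replicate. O4 is an antibody to sulfatide and related lipids of late progenitors and oligodendrocytes, and A2B5 is an antibody to gangliosides of glial progenitors and some neurons. No strain, treatment or genetic change is given in the labels used here. For array B the source field of the labels reads whole brain, and the population of those arrays was taken from their titles. Per the labels, replicates are separate litters, but whether O4+ and A2B5+ cells came from the same litters is not stated.

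Acyl-CoA synthetases join coenzyme A to a free fatty acid at the cost of ATP, which keeps the fatty acid in the cell and makes it a substrate for every later step. The resulting acyl-CoA can be built into phospholipids, triglycerides, sphingolipids and cholesterol esters, lengthened or desaturated, or burned in mitochondria and peroxisomes. Myelin is a lipid-rich membrane, so oligodendrocytes use acyl-CoA in large amounts while they build it. The 5 genes differ in preferred fatty acid and in place: Acsl1 is the main form of liver, fat and muscle, Acsl3 sits on the endoplasmic reticulum and lipid droplets, Acsl4 prefers arachidonic acid, Acsl5 is abundant in intestine and partly mitochondrial, and Acsl6 is the form enriched in brain, with a preference for docosahexaenoic acid.

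Each value is a ratio that the authors deposited. For most probe sets the median over the 9 arrays of a type is exactly 1, so a ratio of 2.71 means 2.71 times the probe set's own middle value, and ratios of different probe sets do not compare as levels. Differences are log2, O4+ minus A2B5+, with the standard error (SE) of a limma fit over all tested probe sets of an array type, and n = 4 and 5. A difference was called at a Benjamini-Hochberg adjusted p under 0.05 over all of them. Of the 8 Acsl probe sets, 7 passed the filter on low values, which asked for a ratio of at least 1 on 4 of the 9 arrays.

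On each array type, 1 O4+ array stood apart by its control probe sets. O4+ replicate 2 on array A had a mean log2 ratio of 0.494 over the 57 control probe sets, against -0.0847 to -0.00591 in the other O4+ arrays and -0.562 to -0.168 in A2B5+ arrays. O4+ replicate 4 on array B had 0.218, against -0.175 to -0.127 in the other O4+ arrays and -0.426 to -0.148 in A2B5+ arrays. Over 100 probe sets that both types share, O4+ replicate 2 of array A correlated best with this array (r = 0.937). The median of all tested probe sets on array A was 0.0621 to 0.163 in O4+ arrays, against -0.12 to 0 in A2B5+ arrays, so that differences on array A include a shift toward O4+. On array B these medians were -0.013 to 0.0144 in O4+ arrays and -0.0101 to 0 in A2B5+ arrays. Of the oligodendrocyte markers, 11 of 11 tested were higher in O4+ cells, which fits that label. Of 7 tested progenitor markers, which the A2B5+ label would lead one to look for, 4 were lower in O4+ cells (Pdgfra, the receptor of progenitors, by -2.29 ± 0.61) and 3 were higher (Sox10, a factor of the whole lineage, by 4.68 ± 0.61), so the list as a whole does not mark A2B5+ cells. Among markers of other cells, all 7 mast cell, 9 of 10 microglia and 7 of 10 endothelial and mural markers were lower in O4+ cells. Over all 11982 tested genes, 28.8% were higher in O4+ cells and 17.8% lower. Sorted populations are mixtures, and fewer cells of a type and less RNA per cell cannot be told apart in them.

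Acsl1 and Acsl3 rose in O4+ cells, Acsl6 and Acsl5 fell, and Acsl4 was not called. On array A, 3 of 6 Acsl probe sets were higher and 2 were lower, where 32.5% and 14.7% of all tested probe sets were. With each array centred on its median the same counts were 3 and 2, with 18.6% of all probe sets higher and 17.9% lower. On array B the 1 tested Acsl probe set was lower, where 13.8% of all were lower and 9.93% higher. The populations did not overlap in 4 of the 6 probe sets on array A and in the 1 on array B, where 44.0% and 25.6% of all tested probe sets did not overlap. Movement in one direction or the other was thus common among all genes, and what follows describes each member.

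The windows upstream of the family's start sites are of different kinds, and 3 of them are shown, for the 2 genes that rose and for the gene with the largest fall on array A: the 250 bases before the start that RefSeq's table gives, on build GRCr8, 5′ to 3′ on the strand of the gene. Capitals mark matches on either strand. The motifs searched were GGGCGG, the GC box bound by Sp factors, the CCAAT box spelled by its name, the E-box CAGCTG, and the TATA box TATAAA. Acsl1 is at chr16:52532393-52532642 on the minus strand, Acsl3 at chr9:87563351-87563600 and Acsl6 at chr10:38951911-38952160, both on the plus strand.
Acsl1: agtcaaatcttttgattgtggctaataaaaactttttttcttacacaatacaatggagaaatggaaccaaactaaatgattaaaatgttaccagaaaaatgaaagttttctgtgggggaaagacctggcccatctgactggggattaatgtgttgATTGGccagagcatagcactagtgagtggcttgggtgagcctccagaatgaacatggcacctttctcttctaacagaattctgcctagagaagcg
Acsl3: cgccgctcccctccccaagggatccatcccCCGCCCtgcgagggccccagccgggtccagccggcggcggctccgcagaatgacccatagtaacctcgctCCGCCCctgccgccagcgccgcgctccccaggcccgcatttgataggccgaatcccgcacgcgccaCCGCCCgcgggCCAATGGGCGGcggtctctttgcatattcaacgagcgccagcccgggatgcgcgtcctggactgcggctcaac
Acsl6: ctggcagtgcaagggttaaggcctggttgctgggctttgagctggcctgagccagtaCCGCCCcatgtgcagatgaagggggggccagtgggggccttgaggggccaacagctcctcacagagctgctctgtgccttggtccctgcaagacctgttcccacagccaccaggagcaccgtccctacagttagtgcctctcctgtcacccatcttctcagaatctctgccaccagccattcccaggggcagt

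The 2 risers did not share a window type, but their starts are not alike. The Acsl3 start lies at the edge of its gene and the Acsl1 start 21718 bases inside it. The Acsl3 window was 72.4% G and C with 31 CpG dinucleotides, and the Acsl1 window was 40% with 1, where all 33469 windows had medians of 51.2% and 5. The Acsl6 window was 61.6% with 2. Acsl4, not called, was like Acsl3 (70.4% and 28), and Acsl5 near the middle (50.4% and 4).

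The GC box occurred 4 times in the Acsl3 window, 2 times in Acsl4 and 1 time in Acsl6, and 30.5% of all windows hold it. CCAAT occurred once each in Acsl1 and Acsl3 (34% of all windows), and in Acsl3 it abuts a GC box. CAGCTG occurred once in Acsl4 (12% of windows) and TATAAA once in Acsl5 (12.9%). For Acsl1, Acsl6 and Acsl4 the table's start lies inside the annotated gene, by 21718, 11493 and 155 bases. Part or all of the window is thus within the gene and other start sites are annotated. The arrays do not tell which was used, so the Acsl1 and Acsl6 windows need not be the promoters in use.

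Acsl1, which feeds both triglyceride synthesis and mitochondrial oxidation in other tissues, had the largest rise of the family. Its probe set 1388153_at read 4.91, 3.00, 3.79 and 4.81 in O4+ replicates 1 to 4, against 0.82, 0.764, 0.747, 0.783 and 1 in A2B5+ replicates 1 to 5. The lowest O4+ array stood well above the highest A2B5+ array. The difference was 2.31 ± 0.17, or 4.95-fold (limma adjusted p = 6.4e-06), which is larger than the SDs of 0.33 in O4+ and 0.17 in A2B5+ cells (log2, n = 4 and 5).

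The second Acsl1 probe set of array A, 1370939_at, gave the same picture with more spread. It read 5.04, 2.63, 2.67 and 4.44 in O4+ replicates 1 to 4, against 0.888, 0.975, 0.515, 0.513 and 1 in A2B5+ replicates 1 to 5. Here too the populations did not overlap, and the difference was 2.25 ± 0.29, or 4.75-fold (limma adjusted p = 2.0e-04). O4+ replicates 1 and 4 were the highest of the 4 in both probe sets, which were annotated from the same transcript record. The difference ranked 353 from the top of 13098 tested on array A for this probe set and 332 for 1388153_at.

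The remaining Acsl1 probe set, 1382887_at on array B, stayed almost level. It read 0.651, 0.648, 0.652 and 0.67 in O4+ replicates 1 to 4, against 0.613, 0.597, 0.594, 0.61 and 0.644 in A2B5+ replicates 1 to 5. All O4+ values lay above all A2B5+ values here too, but within a narrow range, from 0.594 to 0.67. No array reached a ratio of 1, so the probe set was not tested. Its log2 SD over all 9 arrays was 0.063, where probe sets of array B with a median ratio below 1 had a median SD of 0.0771 and those with a median of 1 had 0.345. It comes from another sequence record than the 2 probe sets of array A, and its difference, 0.10 ± 0.04 in a fit with no filter (limma adjusted p = 0.12), was not called.

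Acsl3, an enzyme of the endoplasmic reticulum and of growing lipid droplets, rose almost as far and was the most even of the tested members among O4+ arrays. Its ratio was 2.71, 2.91, 3.11 and 3.06 in O4+ replicates 1 to 4, against 0.813, 0.622, 0.891, 1 and 0.667 in A2B5+ replicates 1 to 5. The 4 O4+ arrays lay within 1.15-fold of each other, far above all A2B5+ arrays (probe set 1368177_at). The difference was 1.90 ± 0.16, or 3.74-fold (limma adjusted p = 1.4e-05), with SDs of 0.089 in O4+ and 0.285 in A2B5+ cells (log2, n = 4 and 5). For Acsl1 on array A and for Acsl3 the highest A2B5+ ratio is exactly 1, because with 4 higher O4+ arrays the middle of the 9 values is the highest A2B5+ array.

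Acsl6, the form enriched in brain, fell furthest on array A. Its ratio on probe set 1368182_at was 0.394, 0.582, 0.819 and 0.831 in O4+ replicates 1 to 4, against 2.3, 1.32, 3.52, 3.33 and 1 in A2B5+ replicates 1 to 5. The populations did not overlap, although A2B5+ replicate 5 came close to the O4+ arrays. The difference was -1.70 ± 0.40, a level 3.25-fold lower in O4+ cells (limma adjusted p = 0.0065). A2B5+ cells varied more for Acsl6 than for any other tested member, with a 3.52-fold range and an SD of 0.81, against a 2.11-fold range and an SD of 0.51 in O4+ cells.

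Acsl5, an enzyme of mitochondria and endoplasmic reticulum, was lower in O4+ cells on both array types. On array B, probe set 1397375_at read 0.79, 0.507, 0.453 and 0.29 in O4+ replicates 1 to 4, against 1.36, 1.49, 1.36, 1 and 2.15 in A2B5+ replicates 1 to 5. The populations did not overlap, and the difference was -1.57 ± 0.30, a level 2.98-fold lower in O4+ cells (limma adjusted p = 0.0056). The lowest value, 0.29, is that of O4+ replicate 4, the array that stood apart on array B, and without it the difference was -1.33 (limma adjusted p = 0.0093). On array A, probe set 1386926_at read 0.604, 1.07, 0.906 and 0.606 in O4+ replicates 1 to 4, against 1, 1.59, 0.929, 1.17 and 1.73 in A2B5+ replicates 1 to 5.

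These Acsl5 values on array A overlapped, since O4+ replicate 2 stood above A2B5+ replicates 1 and 3. The difference there was -0.69 ± 0.25, 1.61-fold lower in O4+ cells, and barely called (limma adjusted p = 0.042). The call was lost without any one of O4+ replicates 1, 3 or 4 or A2B5+ replicates 2, 4 or 5 (limma adjusted p = 0.053 to 0.11, differences of -0.77 to -0.57). With arrays centred it held at -0.86 ± 0.23 (limma adjusted p = 0.017). A2B5+ replicates 5 and 2 were the 2 highest arrays on both types. Among O4+ arrays, replicate 2 was highest on array A, while replicate 4 of array B, with which it correlated best, was lowest there. The other O4+ arrays, matched in this way, ran in the same order on both types, with array A replicates 4 and 1 nearly equal.

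Acsl4, which prefers arachidonic acid and whose products make membranes prone to lipid peroxidation in ferroptosis, was not called. Its ratio on probe set 1387101_at was 1.33, 0.758, 1.54 and 1.21 in O4+ replicates 1 to 4, against 0.978, 0.917, 0.841, 1 and 1.03 in A2B5+ replicates 1 to 5. O4+ replicates 1, 3 and 4 lay above all A2B5+ arrays, and O4+ replicate 2, the array with the highest control probe sets, lay below them all. The difference was 0.30 ± 0.20 (limma adjusted p = 0.22). Without O4+ replicate 2 it was 0.51 and called (adjusted p = 0.013), as it was with array weights, at 0.47 (adjusted p = 0.0078). With arrays centred it was 0.13 (adjusted p = 0.62).

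**Figure D1:**
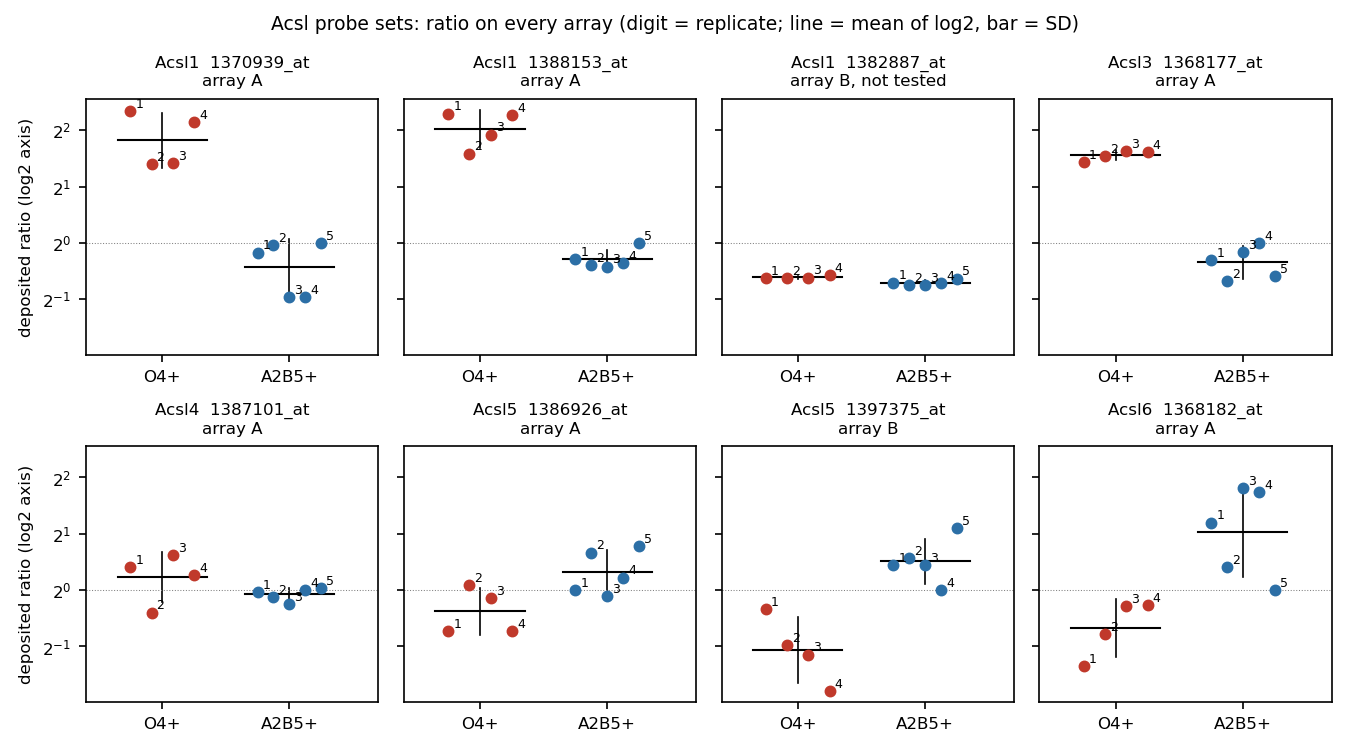
Deposited ratio of each of the 8 Acsl probe sets on every array, on a log2 axis, with O4+ cells (red) left of A2B5+ cells (blue); digits are replicate numbers, horizontal lines the mean of the log2 values and bars their SD (n = 4 and 5). Acsl1 on array A and Acsl3 lie between 2.63 and 5.04 in O4+ cells and at most at 1 in A2B5+ cells, while Acsl6 and Acsl5 on array B lie at most at 0.831 in O4+ cells and at least at 1 in A2B5+ cells.

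The fitted differences of the 7 tested probe sets thus ran in one order, with Acsl1 first, then Acsl3, Acsl4, Acsl5 and Acsl6. Acsl1 (2.31 and 2.25) and Acsl3 (1.90) were neighbours in that order, as were Acsl6 (-1.70) and Acsl5 on array B (-1.57), and these last 2 lay within 1 SE of each other. Acsl5 on array A (-0.69) was the smallest called difference, and whether the 2 Acsl5 probe sets differ was not tested. Removing the median of each array A library lowered the array A values (Acsl1 to 2.14 and 2.08, Acsl3 to 1.73, Acsl6 to -1.87) and changed no call. Leaving out 1 replicate at a time kept Acsl1 between 2.08 and 2.45, Acsl3 between 1.82 and 1.99, Acsl5 on array B between -1.82 and -1.33, and Acsl6 between -1.96 and -1.48. Without O4+ replicate 2, the library that stood apart on array A, the differences there were 2.45 and 2.39 for Acsl1, 1.91 for Acsl3, -0.84 for Acsl5 and -1.66 for Acsl6.

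**Figure D2:**
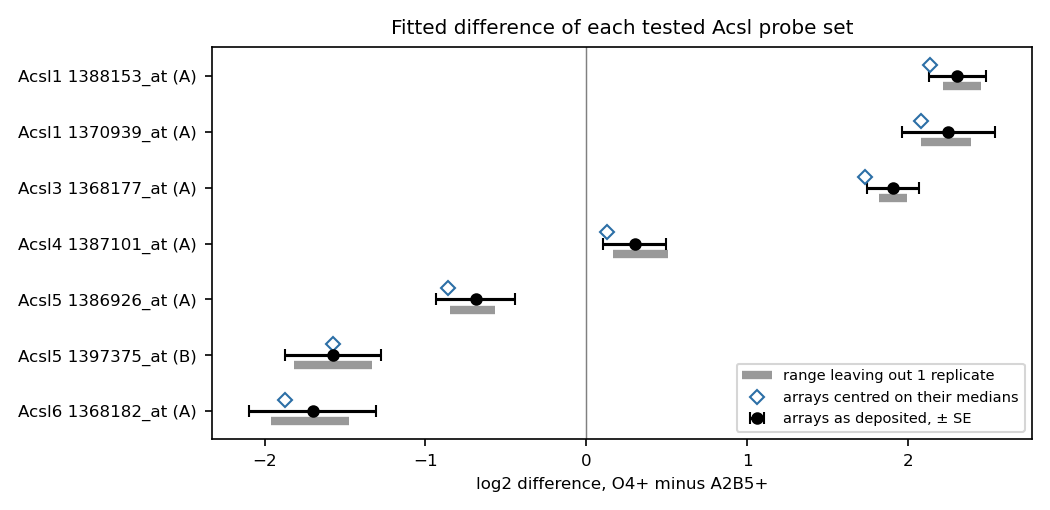
Log2 difference, O4+ minus A2B5+, of each tested Acsl probe set, with its array type in brackets. Black points with bars are the fitted values with SE. Open diamonds are the values with each array centred on its median, and grey bars the range when 1 replicate is left out. Points, diamonds and grey bars of Acsl1 and Acsl3 lie at 1.73 or above and those of Acsl6 at -1.48 or below.

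Setting one member against another on the same array removes the scale of that array. Of 10 pairs of members on array A, the populations did not overlap in 7. No such count was made over pairs of other genes. The differences reuse the member values above, so the count adds no separate support. A riser minus Acsl6 had to separate, as neither overlapped and they moved in opposite directions. Acsl1 minus Acsl6 changed most, being 2.59 ± 0.74 in O4+ cells and -1.39 ± 1.09 in A2B5+ cells (log2, SD, n = 4 and 5), a change of 3.98. Acsl3 minus Acsl6 had the widest gap, with O4+ arrays at 1.88 to 2.78 and A2B5+ arrays at -1.98 to -0.58. The 3 pairs with overlap were Acsl1 with Acsl3, Acsl4 with Acsl5, and Acsl5 with Acsl6. Acsl1 minus Acsl3, each relative to its own middle value, was 0.36 ± 0.45 in O4+ cells and -0.01 ± 0.56 in A2B5+ cells (log2, SD).

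**Figure D3:**
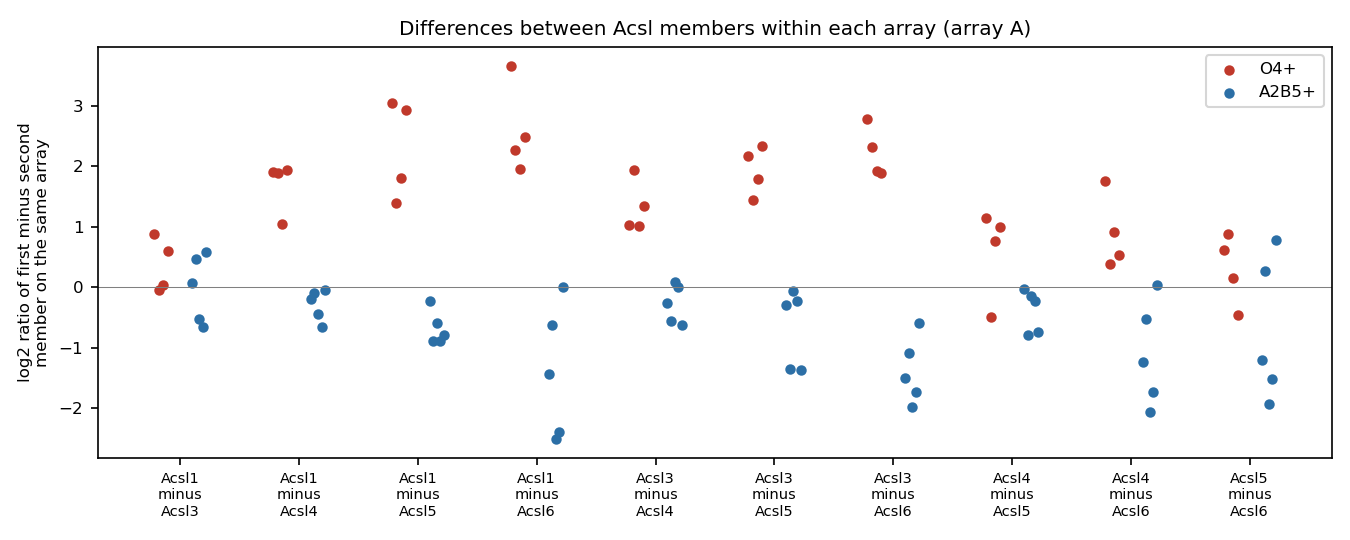
Log2 ratio of one Acsl member minus that of another on the same array, for the 10 pairs on array A; each point is an array, O4+ in red and A2B5+ in blue, and Acsl1 is the mean of its 2 probe sets. Points of both populations separate in 7 pairs, most widely for Acsl3 minus Acsl6, and mix in the pairs Acsl1 with Acsl3, Acsl4 with Acsl5 and Acsl5 with Acsl6.

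Among A2B5+ replicates the 2 members that fell ran in different orders, a pattern picked out after the values were seen. Acsl6 was highest in A2B5+ replicates 3, 4 and 1 (log2 1.82, 1.74 and 1.20) and lowest in replicates 2 and 5 (0.40 and 0). Acsl5 on array A was highest in replicates 5 and 2 (0.79 and 0.67) and lower in 4, 1 and 3 (0.22, 0 and -0.11). Among A2B5+ arrays the means of some cell type marker lists ran alongside each of them.

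The mean of 10 astrocyte and radial glia markers was -0.79 to -0.33 in O4+ arrays and -0.07 to 0.81 in A2B5+ arrays. Within A2B5+ it was highest in replicates 3, 4 and 1 (0.81, 0.68 and 0.52), the arrays highest for Acsl6, and 0.19 and -0.07 in replicates 2 and 5. The mean of 11 neuron markers was -0.69 to -0.26 in O4+ arrays and -0.17 to 1.26 in A2B5+ arrays, again highest in replicates 3 and 4 (1.26 and 1.05). Among O4+ arrays this did not hold throughout. Replicate 4 was highest for Acsl6 (-0.27) and for both lists (-0.33 and -0.26). Replicate 3, next for Acsl6 (-0.29), was lowest for both (-0.79 and -0.69). Of these lists, 6 of 10 astrocyte markers were lower in O4+ cells and none of the 10 higher by limma. Of the 11 neuron markers, 7 were lower and 3 higher, where 17.8% and 28.8% of all genes were. The part of these cells in the fall of Acsl6 was not tested.

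For Acsl5 the mast cell and microglia markers ran alongside. The mean of 7 mast cell markers was -1.97 to -1.36 in O4+ arrays and 0 to 2.35 in A2B5+ arrays, with replicates 5 and 2 the highest (2.35 and 2.23), as for Acsl5. The mean of 10 microglia markers was -1.35 to 0.057 in O4+ arrays and -0.01 to 0.78 in A2B5+ arrays, also highest in replicates 2 and 5 (0.78 and 0.67). Among O4+ arrays this did not hold throughout: replicate 2 was highest for Acsl5 and for microglia markers (0.057), but replicate 3, the next for Acsl5, was the lowest for microglia (-1.35) and mast cell markers (-1.97). The part of these cells in the Acsl5 difference was not tested. The mean of 9 endothelial and mural markers, -1.87 to -0.70 in O4+ arrays and 0.04 to 0.58 in A2B5+ arrays, also differed.

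Oligodendrocyte markers separated the populations as Acsl1 and Acsl3 did. The mean of 9 of them was 3.67 to 4.36 in O4+ arrays and -1.10 to -0.59 in A2B5+ arrays. O4+ replicates 1 and 4, highest for Acsl1, were also highest for these markers (4.36 and 4.35), against 3.67 and 3.84 in O4+ replicates 2 and 3. Acsl3 did not follow that order, as its lowest O4+ value was in replicate 1. Within A2B5+ Acsl1 did not follow these markers either. Replicate 5 was highest for Acsl1 (mean log2 ratio 0) and lowest for the markers (-1.10). Replicate 3 was lowest for Acsl1 (-0.69) but second highest for the markers (-0.67). The part of the share of oligodendrocytes in these rises was not tested. The mean of 6 progenitor markers overlapped, at 0 to 0.40 in O4+ arrays and -1.0 to 0.80 in A2B5+ arrays, but within A2B5+ it split the replicates as Acsl6 did, with replicates 1, 4 and 3 at 0.80, 0.42 and 0.30 and replicates 2 and 5 at -0.38 and -1.0. The part of progenitors in the Acsl6 difference was not tested either.

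**Figure D4:**
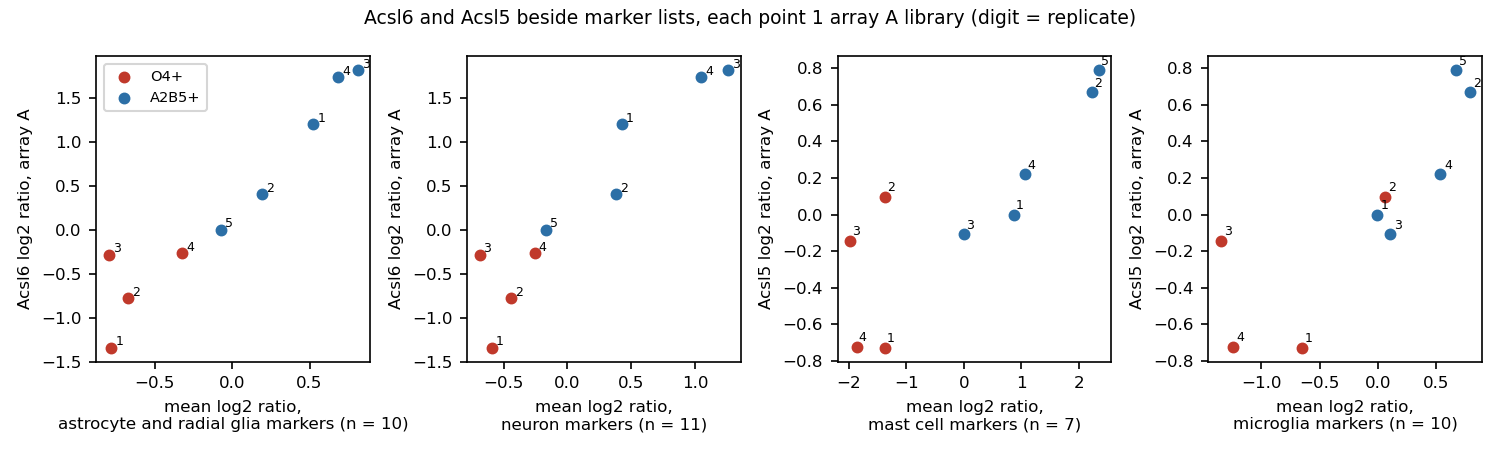
Log2 ratio of Acsl6 (left 2 panels) and Acsl5 (last 2 panels) on array A against the mean log2 ratio of a marker list on the same array; each point is 1 library with its replicate number, O4+ in red and A2B5+ in blue. A2B5+ replicates 3 and 4 are highest for Acsl6 and for neuron and astrocyte markers, and replicates 5 and 2 for Acsl5 and for mast cell and microglia markers.

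The genes whose pattern over the 9 arrays was most like each member were found by Pearson correlation of log2 ratios among probe sets of the same array type. Each member was represented by its most variable tested probe set, which for Acsl1 was 1370939_at. Each compared gene was represented by its best-correlating probe set. High values were common, since many genes separate the populations: 10.9% of 9040 genes reached 0.9 with Acsl3 and 6.5% with Acsl1, but 1.62% with Acsl6, 1.32% of 4560 with Acsl5 on array B, and 0.42% with Acsl4. The genes most like Acsl1 were Fnbp1 (0.993), a protein that bends membranes, Slc45a3 (0.988), a solute carrier, and Tpd52 (0.984). Those most like Acsl3 were Pcyt2 (0.994), which makes the CDP-ethanolamine used for phosphatidylethanolamine, Nudt16l1 (0.992) and Ccdc107 (0.991). Pcyt2 rose by 2.11 ± 0.18 and Slc45a3 by 2.81 ± 0.31.

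For Acsl6 the nearest genes were Ormdl3 (0.985), a regulator of sphingolipid synthesis, the long noncoding RNA Meg3 (0.984), and Dpp6 (0.983), an auxiliary subunit of neuronal potassium channels. Meg3 fell by 1.08 ± 0.24 and Dpp6 by 1.23 ± 0.28. For Acsl5 on array B they were the kinase Pak4 (0.981), the stress sensor Sesn2 (0.966) and Derl1 (0.961), which helps remove misfolded proteins from the endoplasmic reticulum. For Acsl4 they were Ero1a (0.965), an oxidase of disulfide formation, the splicing factor subunit Sf3b5 (0.960) and Ap5s1 (0.955). These are descriptions over 9 arrays that share their libraries.

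The other enzymes that activate fatty acids moved in both directions. Per gene, taking the mean of its tested probe sets, 28.8% of 11982 genes were higher in O4+ cells and 17.8% lower, or 18.7% and 20.4% with arrays centred. Of 15 tested genes among 18 listed acyl-CoA synthetases outside the family, 4 were higher and 5 lower (3 and 5 centred), with a median difference of 0.19 against 0.14 over all genes. That 0.14 mixes array types, while most listed genes here and below are on array A. Over all tested probe sets the median difference was 0.26 on array A and 0.04 on array B. Aacs, which activates acetoacetate for lipid synthesis, rose by 3.93 ± 0.25 (15.2-fold), Acss2, which makes cytosolic acetyl-CoA from acetate, by 2.87 ± 0.24 (7.29-fold), and Slc27a4, a fatty acid transport protein with synthetase activity, by 1.66 ± 0.21. Acsbg1, a very-long-chain synthetase of brain, fell by 1.50 ± 0.21, the medium-chain synthetase Acsf2 by 1.37 ± 0.14, and Slc27a1 by 1.25 ± 0.22.

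With arrays as deposited, proteins that bind acyl-CoA or split it were called higher about as often as all genes (28.8%). Of 16 tested genes of 24 listed, 5 were higher. Limma called 0 lower, 2 having an unadjusted p under 0.05 toward lower. With arrays centred 5 were higher and 1 was lower, where 18.7% and 20.4% of all genes were. The list median was 0.33. The thioesterases Acot8 of peroxisomes, Acot7 of the cytosol and Them4 rose by 1.50 ± 0.15, 1.40 ± 0.11 and 1.34 ± 0.20. Dbi, the main acyl-CoA binding protein, had a difference of 0.12 ± 0.29 (limma adjusted p = 0.76).

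Enzymes that build acyl-CoA into glycerolipids held 8 genes higher and 2 lower of 20 tested among 27 listed, with a median of 0.21 (6 and 4 centred). The shares over all genes were 28.8% higher and 17.8% lower, or 18.7% and 20.4% centred. Agpat4, which makes phosphatidic acid, rose by 3.73 ± 0.20 (13.3-fold), Dgat2, which makes triglycerides, by 3.47 ± 0.20 (11-fold), and Gpat4, of the first acylation of glycerol phosphate, by 1.41 ± 0.14. Mboat1, a lysophospholipid acyltransferase, fell by 2.33 ± 0.24, and Soat1, which esterifies cholesterol, by 0.67 ± 0.18.

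In the carnitine shuttle and beta-oxidation, 9 of 29 tested genes of 36 listed were higher and 1 was lower (7 and 3 centred), with a median of 0.11, below that of all genes. Of all genes, 28.8% were higher and 17.8% lower (18.7% and 20.4% centred). With arrays as deposited, the list was thus called higher about as often as all genes. Echs1 and Hadh, of the mitochondrial cycle, rose by 1.80 ± 0.16 and 1.22 ± 0.13, and Abcd3, a fatty acid transporter of peroxisomes, by 1.22 ± 0.20. Abcd4, a lysosomal transporter of the same protein family, fell by 1.60 ± 0.21. Cpt1a, the liver form of the gate of the shuttle, differed by -0.06 ± 0.12 (limma adjusted p = 0.70).

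In fatty acid synthesis, elongation and desaturation, 9 of 19 tested genes of 24 listed were higher and 2 were lower (7 and 2 centred), with a median of 0.38. All genes together had 28.8% higher and 17.8% lower, or 18.7% and 20.4% centred. Elovl6, which lengthens palmitate, rose by 2.93 ± 0.39, Elovl1, an elongase of very long saturated chains, by 2.84 ± 0.11, and the dehydratase Hacd1 by 2.12 ± 0.20. Elovl2, which lengthens polyunsaturated chains toward docosahexaenoic acid, fell by 1.85 ± 0.46, and Hacd4 by 0.77 ± 0.27, both with overlap between the populations.

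Around Acsl4, a list of 14 ferroptosis and glutathione genes leaned the other way. All but 1 were tested. Of the 13, 6 were lower and 1 was higher (6 lower and 0 higher by limma with arrays centred), with a median of -0.69. Among all genes 17.8% were lower and 28.8% higher, or 20.4% and 18.7% centred. Slc7a11, the cystine importer, fell by 1.73 ± 0.33, the transferrin receptor Tfrc by 1.43 ± 0.24, and the lipoxygenase Alox12 by 1.22 ± 0.36. Por, the oxidoreductase that supplies electrons to cytochromes P450, rose by 0.38 ± 0.11, a call that ended with arrays centred (limma adjusted p = 0.11). Gpx4, which reduces lipid peroxides, differed by 0.32 ± 0.23 (limma adjusted p = 0.28).

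**Figure D5:**
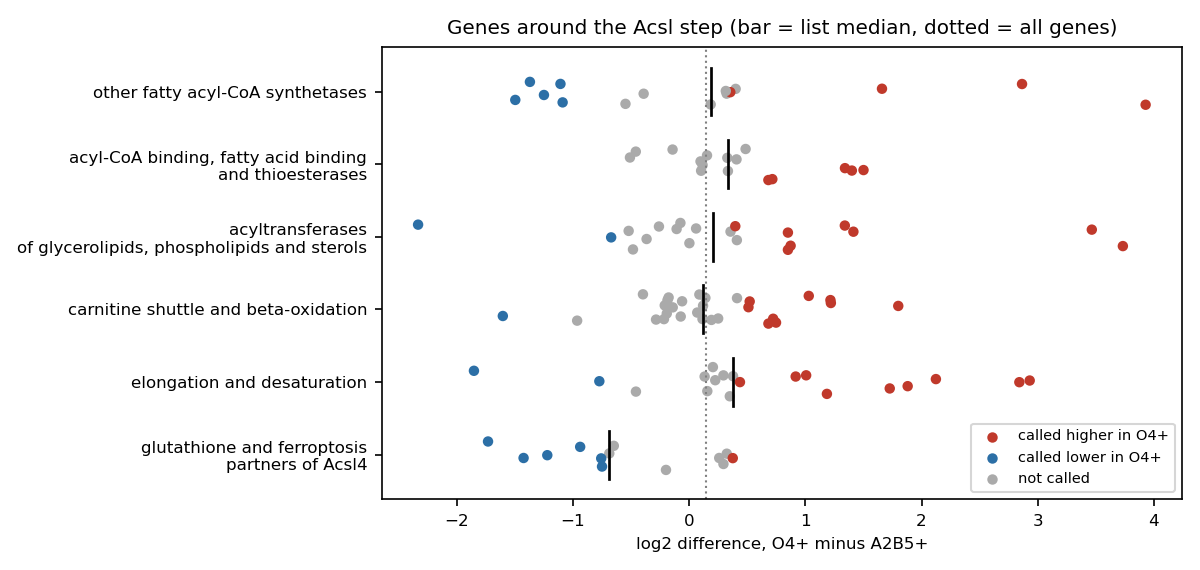
Log2 difference, O4+ minus A2B5+, of every tested gene in the 6 lists around fatty acid activation; each point is a gene, red if called higher in O4+ cells, blue if called lower and grey if not called. Black bars are list medians, from -0.69 to 0.38, and the dotted line is the median of all genes of both array types, 0.14.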

How the data were processed

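Total RNA of sorted O4+ and A2B5+ cells was labelled with biotin and hybridised to 2 array types, 9 arrays each. The values are linear ratios per probe set, as the authors deposited them; the submitters' processing notes name GCRMA, with no version, and do not describe the step to ratios in the sources used here. A probe set's median ratio was exactly 1 in 12995 cases on array A (of 15923) and 11050 cases on array B (of 15333), otherwise lower. Ratios were log2-transformed without an offset or further normalization. Control probe sets (57 per type) were left out, and 13098 and 11136 probe sets had a ratio of at least 1 on at least 4 of 9 arrays and were tested. Each array type had its own limma fit of O4+ against A2B5+ (version 3.58.1, R 4.3.3; lmFit and eBayes, two-sided), with Benjamini-Hochberg adjustment over all tested probe sets or genes. One row per gene was the mean of its tested probe sets with 1 symbol, array A before array B (9045 and 2937 genes). Probe sets were named by the platform annotation; 12789 and 7570 had 1 symbol, 312 and 100 several, and 2822 and 7663 none, and 12754 and 7530 matched the RefSeq gene table by gene identifier. In simulated data with independent normal noise, 200 probe sets per array type were changed. The fit recovered 94% of log2 changes of 2 and 63% of changes of 1 on array A (13098 probe sets), and 91% and 56% on array B. Of its calls 5.99% and 4.55% were false. Far more probe sets were called in the data than were changed here, so these shares need not carry over. The number of arrays limits the precision. The p-values set each difference against the spread between replicates, each a pooled litter, within the populations. They take O4+ and A2B5+ arrays as independent, although the labels do not state whether litters were shared. Same-numbered O4+ and A2B5+ arrays were not treated as pairs. The members and gene lists were chosen with earlier results of these data known. All member probe sets are named; per pathway list, up to 3 largest called rises and falls; per member, the 3 most correlated genes; Dbi, Cpt1a and Gpx4 were added after their values were seen. Alternatives were 2 scalings, 2 filters, array weights, a robust variance prior, the replicate block, another probe set per gene and each replicate left out.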

Additional observations from a re-analysis of the deposited data

How the results depend on the processing

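Directions of all 7 tested Acsl probe sets were the same under every alternative run. The calls that changed were Acsl4, called with array weights or without O4+ replicate 2, and Acsl5 on array A, lost without any of 6 replicates; the cause was not tested. With 1 replicate left out, the number of Acsl probe sets called lower on array A was 1 to 2. Counts of list genes moved more. In the binding and thioesterase list, 8 genes were higher with no filter (5 with it), and the number lower (limma called 0, with 2 at an unadjusted p under 0.05) was 1 with arrays centred or quantile-normalized, 2 with array weights or the replicate block, and 0 to 1 with a replicate left out. Acyltransferases called lower (2) were 4 centred, 5 quantile-normalized and 1 with no filter. In the carnitine and oxidation list, 5 were higher after quantile normalization (9 without), and the number lower (1) was 3 centred or quantile-normalized, 2 with no filter or with the most variable probe set per gene, 4 with array weights and 1 to 3 with a replicate left out. In elongation and desaturation the number lower (2) was 1 after quantile normalization, with no filter, with array weights and with the replicate block, and 1 to 2 with a replicate left out. In the ferroptosis list the number higher (1) was 0 centred, quantile-normalized and with the replicate block, and 2 with no filter, array weights or the most variable probe set.

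Whether the replicate numbers pair the populations cannot be told from these values. Deviations of same-numbered O4+ and A2B5+ arrays correlated at 0.020 to 0.31 on array A and -0.20 to 0.24 on array B. On each type 1 of 4 O4+ arrays correlated best with its own number. So few correlations cannot exclude pairing, and O4+ numbers do not match between the array types (below). With the replicate block, Acsl1 differed by 2.36 and 2.38, Acsl3 by 1.84, Acsl4 by 0.33, Acsl5 by -0.57 and -1.43 and Acsl6 by -1.96, and the block changed no Acsl call.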

Other observations

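Array A and array B share 100 probe sets that are not controls, which shows whether columns of the same number hold the same RNA. For A2B5+ cells each array A replicate correlated best with the same-numbered array B replicate (r = 0.778 to 0.887 over these probe sets, deviations from the population mean). For O4+ cells replicates 1, 2, 3 and 4 of array A correlated best with replicates 3, 4, 1 and 2 of array B (0.836, 0.937, 0.801 and 0.886), and those of the same number at 0.041, -0.80, -0.041 and -0.79. Acsl5 is measured on both types, and its O4+ values are therefore not set against each other by replicate number here. By best match, O4+ replicate 2 of array A, the highest O4+ array there for Acsl5 (1.07), goes with replicate 4 of array B, the lowest there (0.29). The 2 Acsl5 probe sets thus ran opposite ways in this matched pair, whose arrays stood apart by their control probe sets. In the other matched pairs the order was the same on both types. Replicates 3, 4 and 1 of array A (0.906, 0.606 and 0.604) go with replicates 1, 2 and 3 of array B (0.79, 0.507 and 0.453).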
